A study of Mus musculus with 6 samples.

Results

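The 35 genes described here belong to the integrated stress response, the program run by the transcription factors ATF4 and CHOP. They were listed by name as known genes of the pathway, with no measured value in the rule but with earlier results of these data known, and all 35 were found among the 55401 identifiers of the deposited expression matrix. Of these, 31 passed the filter on low values (1 FPKM, fragments per kilobase and per total fragments, reached in 3 or more of 6 libraries) and 4 did not, out of 15723 genes that were tested. RNA was sequenced in hematopoietic stem cells (HSCs) sorted from mouse bone marrow as Lin-, Sca-1+, Kit+ (LSK) cells that lack CD48 and carry CD150. The controls were 3 samples from Emp1fl/fl mice, which carry floxed alleles of Emp1, a tetraspan membrane protein gene. The Emp1-deficient group was 3 samples from Emp1fl/fl,Tie2-Cre mice, which share the floxed alleles and add a Cre recombinase under the Tie2 promoter, active in endothelial as well as blood-forming cells. Age, sex and any treatment of the mice are not given in the labels, which also do not say whether a sample pooled several animals. The title of the series names stress of the endoplasmic reticulum (ER), one of the triggers of this program.

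In the integrated stress response, kinases that each sense a different stress phosphorylate the translation initiation factor eIF2. Most protein synthesis then slows, while the Atf4 messenger, whose upstream reading frames normally block its use, is translated. ATF4 protein switches on genes of amino acid uptake and synthesis, the transcription factor CHOP and, as a brake, a phosphatase subunit that restores eIF2. Because ATF4 is controlled mainly at translation, the amount of its messenger need not follow that of its protein. HSCs are known for a low rate of protein synthesis and for their sensitivity to ER stress.

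Emp1 itself measured 3.25, 2.64 and 4.32 FPKM in control libraries, against 0.58, 0.70 and 0.27 FPKM in Emp1-deficient ones (replicates 1, 2 and 3 in order, here and below). The genotypes did not overlap, in the direction of the labels, and the log2(FPKM + 1) difference was -1.53 (SE 0.25, limma adjusted p = 0.0577). Which exons are floxed is not stated, so the value may include undeleted exons. The libraries held between 14334 and 18048 genes at 1 FPKM or more. Stem cell markers were present in every library, among them Meis1 and Kit, and the 13 HSC markers summed to 1380 to 1543 FPKM in controls and to 1083 to 1533 FPKM in Emp1-deficient libraries. Summed levels of other cell types overlapped between the genotypes for plasma cells (269 to 764 FPKM in controls, 549 to 2613 FPKM in Emp1-deficient libraries, led over all 6 libraries by Igkc, Ighg2b and Xbp1). They also overlapped for B cells (35.2 to 44.4 and 35.6 to 40.4 FPKM, almost all Cd79b), for neutrophils (594 to 756 and 567 to 958 FPKM, led by Prtn3, S100a8 and Mpo) and for monocytes and macrophages (434 to 446 and 363 to 462 FPKM, led by Lyz2, Cd74 and Cd68). The same held for erythroid (110.4 to 207 and 95.7 to 209.6 FPKM, led by Car1), megakaryocyte (657 to 859.6 and 548 to 919 FPKM, led by Pf4 and Itga2b) and endothelial markers (89.7 to 104 and 74.9 to 95.9 FPKM, led by Pecam1 and Tie1). Summed T and NK cell markers did not overlap (198 to 263 and 267 to 376 FPKM), which was almost all Nkg7. Cd4 of the same list went the other way (values below), and Trac was at most 1.29 FPKM in any library. Cd3d and Cd3e, named outside the rule, were at most 0.19 and 1.42 FPKM. Single markers did not always follow these sums, and those named next beyond the leading ones were picked after their values were seen. Genotypes did not overlap for 3 of 12 plasma cell markers (10 of them tested), against 22.1% of all tested genes. Ighg2b lay at 1.37 to 15.68 FPKM in controls and 46.62 to 788.42 FPKM in Emp1-deficient libraries. Ighg2c lay at 1.26 to 15.79 and 49.93 to 435.0 FPKM, and Sdc1 was lower in Emp1-deficient libraries. Ighm had a lower mean in Emp1-deficient libraries but overlapped, at 8.93 to 215.42 and 4.32 to 10.44 FPKM. In controls its mean was above that of Ighg2b (89.5 against 10.7 FPKM), with 215.42 FPKM of Ighm in control replicate 2. In control replicate 3 the order was reversed (8.93 against 15.01 FPKM). Cd4 lay lower, at 3.36 to 6.47 and 0.57 to 1.16 FPKM (log2 difference -1.56, limma adjusted p = 0.0577), as did Tie1, at 34.0 to 38.35 and 18.73 to 25.34 FPKM (-0.68, limma adjusted p = 0.076). The monocyte genes Csf1r and Irf8, the HSC markers Ly6a and Hlf, and Gzma and Vpreb1 also lay lower without overlap, and the HSC marker Hoxb5 higher. None of these marker genes was at 0 in all 6 libraries. The part of other cell types in the results below was not tested. In bulk RNA, fewer cells of a type and less RNA per cell cannot be told apart.

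ATF4 binds DNA as a dimer with C/EBP proteins at a composite element whose core reads TGATGNAA. This core was searched on both strands of RefSeq promoter windows (GRCm38.p6, 250 bases before to 50 after each gene start), which were at hand for 30 of the 35 genes. The core was found in 9 of the 30 (30.0%), against 4.51% of the 27025 genes with a window. The other motif searched, the ER stress response element (CCAAT, 9 bases, CCACG), was found in 0 of the 30 and in 0.137% of all genes. A match is a string of letters, not a measured binding site. The genes with the core were Nupr1, Chac1, Vldlr, Atf3, Asns, Pycr1, Slc7a11, Slc1a4 and Trib3. In Slc1a4 it spans the gene start and in Trib3 it begins 15 bases after it, and these stretches are not shown. Cth, Ppp1r15b, Slc1a5, Slc7a5 and Slc7a3 had no window. Of the 9 genes with the core, 3 were among the 6 members whose Emp1-deficient libraries all lay above the controls. The stretches of these 3, Nupr1 (chr7:126625551-126625602, minus strand), Chac1 (chr2:119351027-119351078, plus strand) and Vldlr (chr19:27216798-27216849, plus strand), are shown 5′ to 3′ on the gene's own strand, with the core in capitals. In all 3 the core lies on the strand opposite to the gene. It starts 110, 193 and 200 bases before the gene start. Gene starts here are those of the RefSeq windows, which can differ from the start of the measured gene. For Nupr1 and Vldlr the stretch lies inside the measured gene (chr7:126623249-126630861 and chr19:27216484-27254231).
Nupr1: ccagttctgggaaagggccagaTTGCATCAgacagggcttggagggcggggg
Chac1: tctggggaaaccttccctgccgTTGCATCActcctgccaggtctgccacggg
Vldlr: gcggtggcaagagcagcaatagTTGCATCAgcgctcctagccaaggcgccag

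For comparison, 4 genes that hold the same core without lying above the controls are shown in the same way. Atf3 (chr1:191183414-191183465), Asns (chr6:7693210-7693254) and Slc7a11 (chr3:50443631-50443701) had overlapping genotypes, and Pycr1 (chr11:120643822-120643873) lay below the controls. All 4 genes are on the minus strand. The stretches of Atf3 and Asns also lie inside the measured genes. Slc7a11 holds the core on both strands, 66 and 47 bases before the start.
Atf3: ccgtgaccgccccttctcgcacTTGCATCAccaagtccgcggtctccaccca
Asns: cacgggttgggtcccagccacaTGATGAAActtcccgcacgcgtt
Slc7a11: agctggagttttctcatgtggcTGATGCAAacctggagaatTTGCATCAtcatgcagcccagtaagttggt
Pycr1: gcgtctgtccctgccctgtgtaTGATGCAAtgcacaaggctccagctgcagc
Among tested members the median log2 difference was 0.103 for the 9 with the core (5 positive) and -0.098 for the 18 with a window but no core (5 positive). Over all tested genes with a window it was -0.055 for the 291 with the core and -0.043 for those without.

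No gene of the program passed the test in Emp1-deficient HSCs. By limma, 0 of the 31 tested members passed the threshold of an adjusted p under 0.05, where 0.267% of all tested genes did (25 higher, 0.159%, and 17 lower, 0.108%). With the p left unadjusted and under 0.05, 3 members lay higher, Nupr1, Vldlr and Ddit3, and 1 lay lower, Atf4. That is 4 of 31, where the background over all tested genes was 16.2% (6.50% higher and 9.72% lower). In 10 members the genotypes did not overlap, against 22.1% of all tested genes. Emp1-deficient libraries were all above the controls for Nupr1, Vldlr, Ddit3, Chac1, Slc7a5 and Slc3a2 (8.91% of all genes) and all below for Atf4, Sesn2, Pycr1 and Gpt2 (13.2% of all genes). A positive difference was seen in 11 of 31 members, against 43.1% of all genes, and the median was -0.074, against -0.046 over all genes. The split of genes called over the whole matrix depended on the scaling, with 14 higher and 14 lower after rescaling to TPM, 15 and 4 with median scaling, 15 and 9 with quantile normalization, 16 and 6 with scaling on protein-coding genes, and 19 and 43 with the dominant genes left out.

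**Figure D1:**
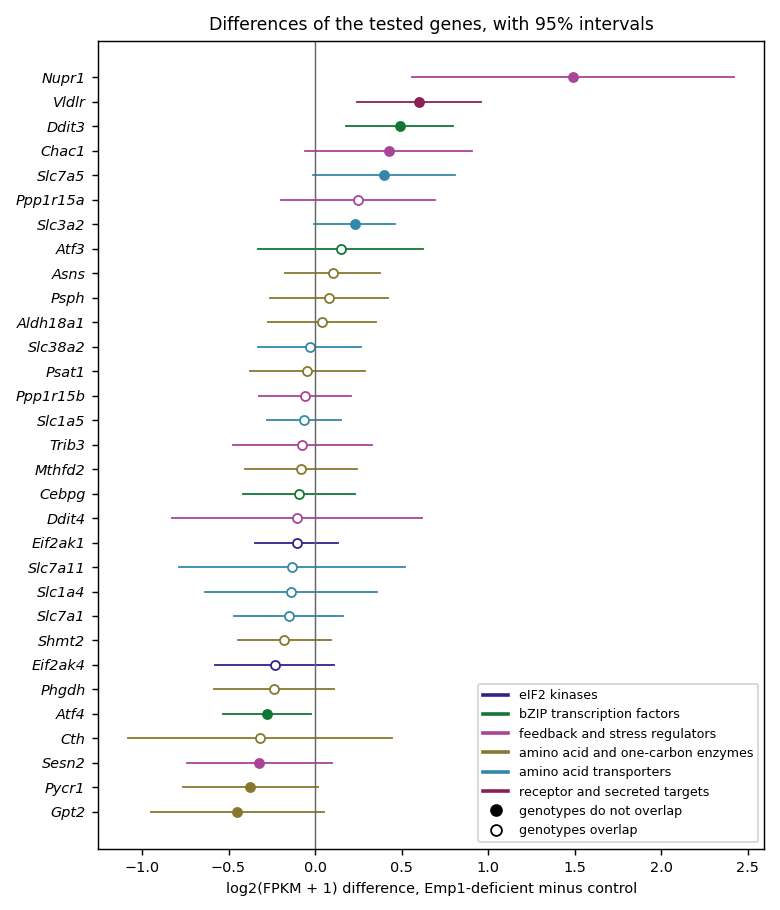
Difference in log2(FPKM + 1) between Emp1-deficient and control HSCs for the 31 tested genes (dot, fitted difference; bar, 95% interval; n = 3 per genotype), coloured by role and ordered by size. Filled dots mark the 10 genes whose genotypes do not overlap; the intervals of Nupr1, Vldlr, Ddit3 and Atf4 do not reach 0, and none of the 31 passed the threshold.

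The eIF2 kinases start the response. Eif2ak4 encodes GCN2, which senses uncharged transfer RNA when amino acids run short. It measured 10.51, 12.59 and 11.54 FPKM in control libraries, against 9.29, 11.48 and 8.40 FPKM in Emp1-deficient ones. The genotypes overlapped through Emp1-deficient replicate 2, and the log2 difference was -0.23 (95% interval -0.58 to 0.11). Eif2ak1, the heme-regulated kinase HRI, averaged 22.9 ± 0.601 and 21.2 ± 1.33 FPKM (SD, n = 3 each), with a difference of -0.11 (95% interval -0.35 to 0.13). Eif2ak1 overlaps Aimp2 on the other strand (mean 54.8 FPKM), so the origin of its reads is uncertain.

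Among the transcription factors, the messengers of ATF4 and of CHOP lay on opposite sides of their controls. Atf4 (ENSMUSG00000042406) measured 128.47, 122.24 and 153.46 FPKM in control libraries, against 116.79, 112.29 and 102.52 FPKM in Emp1-deficient ones. Each Emp1-deficient value was below each control, with control replicate 3 the highest of all. The means were 134.7 ± 16.5 and 110.5 ± 7.30 FPKM (SD, n = 3 each), and the log2 difference was -0.28 (SE 0.11, unadjusted p = 0.0357, limma adjusted p = 0.268). Ddit3 (ENSMUSG00000025408, mm10 chr10:127290774-127296288), which encodes CHOP, measured 121.06, 106.0 and 117.76 FPKM in control libraries, against 148.06, 142.81 and 199.01 FPKM in Emp1-deficient ones. Here each Emp1-deficient library was above each control, and replicate 3 was the highest. The mean was 1.42 times that of controls, 163 ± 31.0 against 114.9 ± 7.92 FPKM (log2 difference 0.49, SE 0.14, unadjusted p = 0.00592, limma adjusted p = 0.141).

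A second identifier with the symbol Ddit3, of 105 exonic bases inside the same locus, had 37.78, 10.22 and 0 FPKM in control libraries and was listed at 0 in all 3 Emp1-deficient ones. How reads were divided between both identifiers is uncertain. Added as plain FPKM they gave 158.84, 116.22 and 117.76 FPKM in controls, so that the genotypes overlapped and the difference was 0.32 (adjusted p = 0.393). Joined in proportion to exonic length they gave 123.38, 106.63 and 117.76 FPKM, no overlap and a difference of 0.48 (adjusted p = 0.149). Ddit3 also overlaps Mars on the other strand, and whether reads were counted by strand is not stated.

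The other basic leucine zipper factors differed less. Atf3, a stress-induced member of the family, measured 24.94, 33.47 and 40.90 FPKM in control libraries, against 45.23, 29.04 and 35.67 FPKM in Emp1-deficient ones. The genotypes overlapped fully (log2 difference 0.15, 95% interval -0.33 to 0.62), and the difference turned negative without control replicate 1 (-0.036) or Emp1-deficient replicate 1 (-0.012). Cebpg, whose product pairs with ATF4, averaged 9.89 ± 1.09 and 9.20 ± 0.757 FPKM. Atf5 and Cebpb did not pass the filter: Atf5 ranged from 0.46 to 0.91 FPKM and Cebpb from 0.11 to 1.36 FPKM over the 6 libraries, and Atf5 overlaps Nup62, which is far more abundant.

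**Figure D2:**
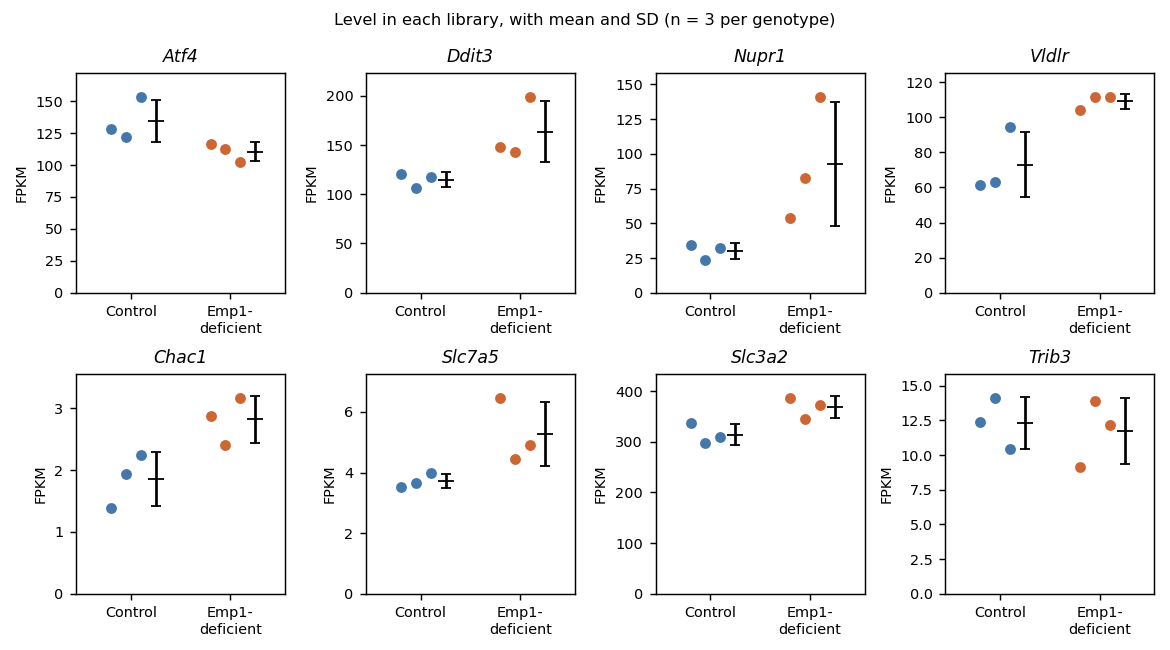
FPKM of 8 members in each library (dots; blue, control; orange, Emp1-deficient), with mean and SD beside them (n = 3 per genotype, axes from 0). Atf4 lies lower and Ddit3, Nupr1, Vldlr, Chac1, Slc7a5 and Slc3a2 lie higher in every Emp1-deficient library, while the Trib3 values mix.

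Of the stress regulators, Nupr1 had the largest difference of any tested member. It encodes a small chromatin-associated protein that is induced by many stresses and by ATF4. Nupr1 (ENSMUSG00000030717) measured 34.20, 23.71 and 32.52 FPKM in control libraries, against 53.57, 82.55 and 141.12 FPKM in Emp1-deficient ones. All 3 Emp1-deficient libraries were above the controls, but they spread widely among themselves. The mean was 3.07 times that of controls, 92.4 ± 44.6 against 30.1 ± 5.63 FPKM, with a log2 difference of 1.49 (SE 0.37, 95% interval 0.56 to 2.42). It did not pass over all genes (unadjusted p = 0.0084, limma adjusted p = 0.159), nor in any alternative (adjusted p from 0.0768 to 0.402). Without Emp1-deficient replicate 3 the difference was 1.13. That library also held the highest levels of the late neutrophil granule genes Camp (42.87 FPKM, against 8.84 or less in the 5 others) and Ngp (43.49 FPKM, against 9.26 or less), named after their values were seen. Of the same list, S100a8, Prtn3 and Ltf were highest there too, but S100a9, Elane, Mpo and Lcn2 were highest in a control library. Emp1-deficient replicate 2 had more Nupr1 than replicate 1, but less Camp (1.49 against 5.12 FPKM) and Ngp (3.42 against 3.79 FPKM). The whole neutrophil list overlapped between the genotypes, and its part in the Nupr1 values was not tested.

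Chac1, an enzyme that degrades glutathione and is a well-known target of ATF4 with CHOP, was low. It measured 1.38, 1.94 and 2.25 FPKM in control libraries, against 2.88, 2.41 and 3.17 FPKM in Emp1-deficient ones. The genotypes did not overlap, though control replicate 3 and Emp1-deficient replicate 2 lay close together. The log2 difference was 0.43 (SE 0.21, unadjusted p = 0.0773, limma adjusted p = 0.372), and it moved with the pseudocount, to 0.60 with 0.1 and 0.19 with 5. Trib3, a pseudokinase that ATF4 and CHOP induce and that restrains them in turn, gave no such split. It measured 12.38, 14.14 and 10.44 FPKM in control libraries, against 9.13, 13.88 and 12.18 FPKM in Emp1-deficient ones. The difference was -0.074 (95% interval -0.48 to 0.33), and it turned positive without control replicate 2, without Emp1-deficient replicate 1, and with median scaling or quantile normalization.

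The eIF2 phosphatase subunits close the loop. Ppp1r15a, the inducible subunit GADD34, was the most abundant member, at a mean of 438.7 FPKM over the 6 libraries and above 98.8% of tested genes. It measured 432.78, 383.86 and 368.93 FPKM in control libraries, against 350.76, 467.41 and 628.58 FPKM in Emp1-deficient ones. The Emp1-deficient libraries ranged from the lowest to the highest value of all 6, and the difference of 0.25 (95% interval -0.19 to 0.69) lay within that spread. It was 0.038 without Emp1-deficient replicate 3 and 0.46 without replicate 1. Ppp1r15b, the constitutive subunit CReP, averaged 34.6 ± 4.67 and 33.1 ± 1.0 FPKM, with a difference of -0.058 that turned positive without control replicate 3 and with median scaling. Immediate early genes, which respond to handling and sorting of cells, summed to 10382, 11465 and 11886 FPKM in control replicates 1, 2 and 3. In Emp1-deficient replicates 1, 2 and 3 they summed to 9787, 13621 and 14203 FPKM. This was the same order as Ppp1r15a in the Emp1-deficient libraries, and the reverse order in controls. The part of immediate early genes in the Ppp1r15a values was not tested.

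Sesn2 and Ddit4 both encode inhibitors of the growth kinase complex mTORC1. Sesn2 measured 6.07, 6.92 and 5.48 FPKM in control libraries, against 5.44, 5.19 and 3.66 FPKM in Emp1-deficient ones. The genotypes did not overlap, but only by 0.04 FPKM between control replicate 3 and Emp1-deficient replicate 1 (log2 difference -0.32, SE 0.18, unadjusted p = 0.115, limma adjusted p = 0.441). Ddit4 averaged 36.4 ± 2.49 and 35.9 ± 14.5 FPKM. Its 20.27 FPKM in Emp1-deficient replicate 1 was the lowest and its 48.85 FPKM in replicate 3 the highest of all, so no direction can be read (it was -0.104, and 0.25 without replicate 1).

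**Figure D3:**
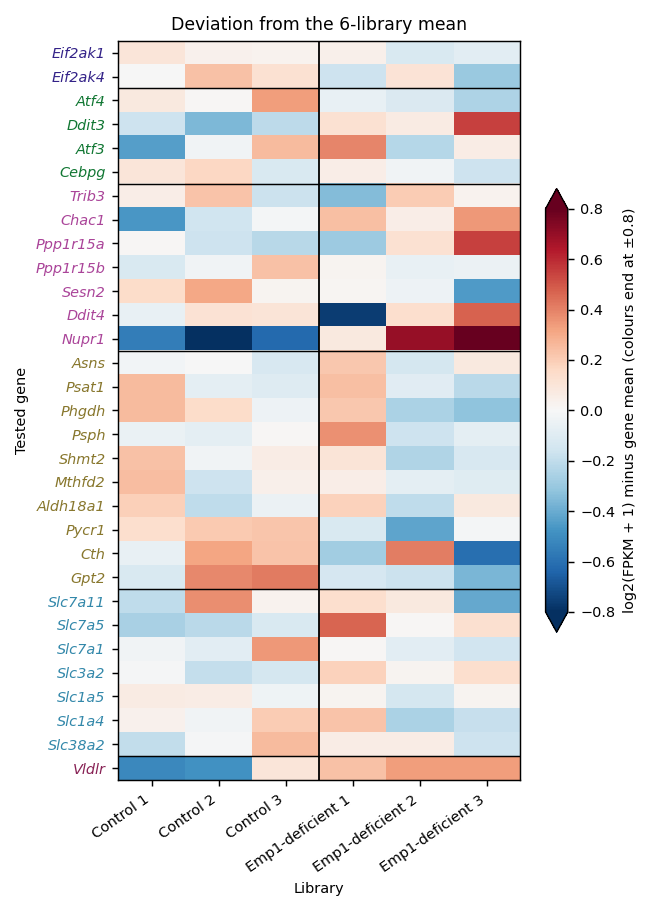
Deviation of each tested member from its own 6-library mean, in log2(FPKM + 1), with libraries in columns and the 31 genes in rows by role (red, above; blue, below; colours end at ±0.8). Nupr1 and Vldlr separate the genotypes, while several enzyme genes, such as Phgdh and Psat1, were highest in control replicate 1 and next highest or near it in Emp1-deficient replicate 1.

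Enzymes of amino acid and one-carbon metabolism, the best known output of ATF4, included no member that passed the test. Of 10 tested, 3 had a positive difference, against 43.1% of all tested genes. By limma 0 of the 10 passed (0.267% of all tested genes), and 0 reached an unadjusted p under 0.05 (16.2% of all tested genes). Their median of -0.129, against -0.046 over all genes, depended on single libraries and settings: it was -0.217 without Emp1-deficient replicate 1, -0.063 and -0.074 without replicates 2 and 3, -0.042 without control replicate 1, -0.047 with median scaling, -0.045 at a mean of at least 5 FPKM and -0.076 with a pseudocount of 5. Asns, the asparagine synthetase gene through which the ATF4 element was worked out, measured 27.61, 27.95 and 25.54 FPKM in control libraries, against 32.78, 25.28 and 29.68 FPKM in Emp1-deficient ones. The genotypes overlapped, with a difference of 0.10 (95% interval -0.17 to 0.38), an interval that leaves out a doubling. The serine synthesis enzymes were abundant and overlapped: Phgdh, the first step, averaged 248 ± 25.2 and 212 ± 45.3 FPKM, Psat1 43.2 ± 6.31 and 42.0 ± 7.20 FPKM, and Psph 19.7 ± 0.655 and 21.2 ± 4.60 FPKM. Psph overlaps Cct6a on the other strand (mean 179.1 FPKM). In Phgdh, Psat1 and Psph, Emp1-deficient replicate 1 was the highest of the Emp1-deficient libraries. The mitochondrial folate enzymes Shmt2 and Mthfd2 averaged 104.6 ± 9.78 and 92.6 ± 11.7 FPKM, and 12.5 ± 1.92 and 11.7 ± 0.727 FPKM.

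Proline synthesis was represented by an early and a late enzyme. Aldh18a1, which makes the first intermediate, averaged 46.1 ± 6.50 and 47.5 ± 6.48 FPKM. Pycr1, the last step in mitochondria, measured 5.38, 5.71 and 5.78 FPKM in control libraries, against 4.34, 3.34 and 4.75 FPKM in Emp1-deficient ones. Each Emp1-deficient value was below the tight controls (log2 difference -0.37, SE 0.17, unadjusted p = 0.058, limma adjusted p = 0.33). Gpt2, the mitochondrial alanine aminotransferase, measured 2.15, 3.48 and 3.57 FPKM in control libraries, against 2.13, 2.05 and 1.66 FPKM in Emp1-deficient ones. Here the genotypes were apart by only 0.02 FPKM, because control replicate 1 was close to the Emp1-deficient libraries (log2 difference -0.45, SE 0.22, unadjusted p = 0.0741, limma adjusted p = 0.366). Cth, which makes cysteine from cystathionine, ranged from 0.18 to 1.38 FPKM and overlapped.

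Among amino acid transporters, both chains of the leucine exchanger LAT1 lay higher in every Emp1-deficient library. Slc3a2, the heavy chain shared by several exchangers, measured 337.45, 297.29 and 308.73 FPKM in control libraries, against 387.25, 345.38 and 372.82 FPKM in Emp1-deficient ones. The mean was 1.17 times that of controls (log2 difference 0.23, SE 0.10, unadjusted p = 0.0539, limma adjusted p = 0.317). Slc7a5, the LAT1 light chain, was far lower: 3.52, 3.66 and 3.99 FPKM in control libraries, against 6.47, 4.46 and 4.92 FPKM in Emp1-deficient ones. The mean was 1.42 times that of controls, with Emp1-deficient replicate 1 the highest (log2 difference 0.40, SE 0.18, unadjusted p = 0.055, limma adjusted p = 0.32). An opposite-strand gene, Gm20388, overlaps Slc7a5 at a mean of 13.6 FPKM, so the assignment of its reads is uncertain.

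The other transporters overlapped between the genotypes. Slc7a11, the cystine importer and another partner of Slc3a2, averaged 1.20 ± 0.451 and 1.01 ± 0.392 FPKM, and the direction turned without control replicate 2 or Emp1-deficient replicate 3. The neutral amino acid carriers Slc1a5 and Slc38a2 averaged 126.6 ± 5.04 and 121 ± 7.85 FPKM, and 68.8 ± 11.1 and 66.9 ± 5.89 FPKM. Slc1a4 averaged 2.34 ± 0.282 and 2.06 ± 0.572 FPKM. Of the arginine and lysine carriers, Slc7a1 averaged 23.2 ± 4.09 and 20.6 ± 1.25 FPKM, and Slc7a3 did not pass the filter, at 0.10 to 0.82 FPKM.

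Vldlr had the smallest p of the members. It encodes a lipoprotein receptor that ATF4 induces under ER stress. Vldlr (ENSMUSG00000024924) measured 61.45, 62.98 and 94.39 FPKM in control libraries, against 104.11, 111.74 and 111.56 FPKM in Emp1-deficient ones. The Emp1-deficient libraries lay close together, and control replicate 3 stood between them and the other controls. The mean was 1.5 times that of controls, 109.1 ± 4.35 against 72.9 ± 18.6 FPKM (log2 difference 0.60, SE 0.16, 95% interval 0.24 to 0.96, unadjusted p = 0.00424, limma adjusted p = 0.129). Without control replicate 3 the difference was 0.80 and passed the threshold (adjusted p = 0.0463), whereas over all alternatives adjusted p ran from 0.0463 to 0.403. Stc2, a secreted glycoprotein gene induced by ATF4, stayed at 0.05 to 0.55 FPKM and was not tested.

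**Figure D4:**
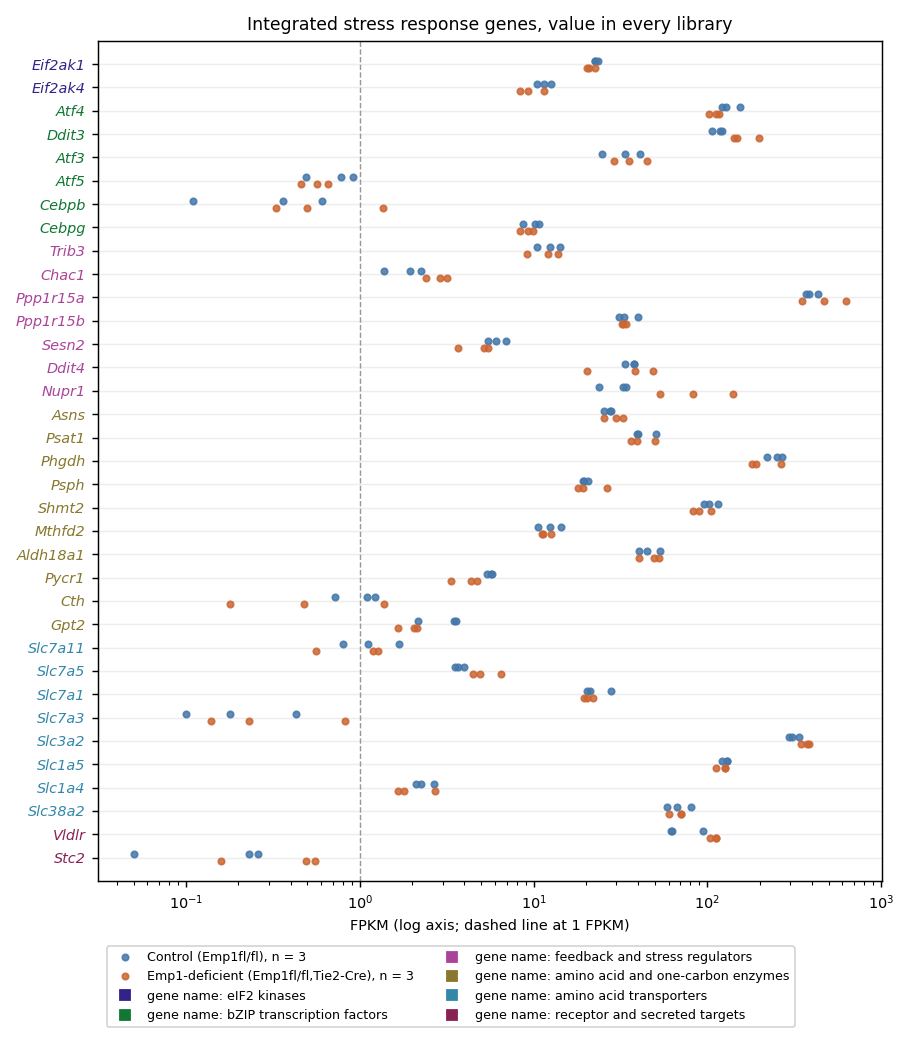
FPKM of all 35 members in each of the 6 libraries (log axis; blue, control; orange, Emp1-deficient; gene names coloured by role). Levels run from under 1 FPKM for Atf5, Cebpb, Slc7a3 and Stc2 in nearly all libraries to the highest levels for Ppp1r15a, Slc3a2 and Phgdh.

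The members also varied between single libraries. Emp1-deficient replicate 3 held the lowest value of 10 of the 31 tested members (32.3%, against 23.0% of all tested genes) and Emp1-deficient replicate 2 that of 8 (25.8%, against 9.86%). Control replicate 3 held the lowest value of 0 members (17.4% of all tested genes) and Emp1-deficient replicate 1 that of 3 (9.68%, against 23.0%). Emp1-deficient replicate 2 held the highest value of 2 members, Cth and Vldlr (6.45%, against 15.0% of all tested genes). The median member lay 0.058 above its 6-library mean in Emp1-deficient replicate 1, and at -0.057 and -0.078 in replicates 2 and 3. In controls it lay at -0.011, -0.025 and 0.031. Over all tested genes the same median lay at -0.016, 0.025 and -0.059 in Emp1-deficient replicates 1, 2 and 3. In controls it was 0.024, 0.059 and -0.004 over all tested genes. Within the controls the median SD of a member on the log2 scale was 0.149, against 0.173 over all tested genes, and within the Emp1-deficient libraries it was 0.209, against 0.199.

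The factors that the kinases act on, and the exchange factor eIF2B that phosphorylated eIF2 blocks, were listed as further pathway genes. Of 18 tested, 9 had a positive difference, against 43.1% of all tested genes (median -0.009), and 0 passed by limma. An unadjusted p under 0.05 was reached by 3 with a higher and 3 with a lower level, where 6.50% and 9.72% of all tested genes reached it. Eif2s2, the beta subunit of eIF2, measured 45.53, 43.61 and 49.13 FPKM in control libraries, against 74.62, 58.80 and 67.89 FPKM in Emp1-deficient ones. All 3 Emp1-deficient libraries were above the controls (log2 difference 0.53, SE 0.11, limma adjusted p = 0.088), and it passed when protein-coding genes alone were tested (adjusted p = 0.044). Eif2s1, the alpha subunit that the kinases phosphorylate, named after its value was seen, averaged 96.0 ± 7.59 and 131 ± 27.1 FPKM with overlap. Eif2b3 and Eif2b4, subunits of eIF2B, lay on opposite sides, with 27.1 ± 1.71 and 37.9 ± 5.45 FPKM against 33.7 ± 1.96 and 27.2 ± 0.407 FPKM. Gcn1l1, which activates GCN2 on stalled ribosomes, averaged 29.3 ± 1.79 and 21.8 ± 3.78 FPKM without overlap. Dele1, which relays mitochondrial stress to HRI and was named after its value was seen, averaged 38.2 ± 1.5 and 31.5 ± 1.88 FPKM without overlap. Eif2ak3, the ER kinase PERK, was low, and its mean was 2.06 ± 1.02 and 2.05 ± 0.0611 FPKM (named outside the rule).

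Other known ATF4 and CHOP targets had mostly positive differences. Of 30 tested out of 33 listed, 20 had a positive difference, against 43.1% of all tested genes (median 0.149), and 0 passed by limma. With the p unadjusted and under 0.05, 9 lay higher (6.50% of all tested genes) and 1 lower (9.72%), and in 11 all Emp1-deficient libraries were above the controls (8.91%). Herpud1, of ER-associated degradation, measured 235.76, 269.72 and 287.03 FPKM in control libraries, against 364.87, 368.68 and 494.93 FPKM in Emp1-deficient ones (log2 difference 0.62, SE 0.14, adjusted p = 0.0989). Gdf15, a secreted stress hormone, measured 28.66, 27.43 and 31.09 FPKM, against 38.45, 38.34 and 41.56 FPKM (0.43, SE 0.10, adjusted p = 0.105). Gadd45a, a growth arrest gene that p53 also induces, measured 4.98, 3.20 and 3.68 FPKM, against 8.07, 5.30 and 7.95 FPKM (0.71, SE 0.21, adjusted p = 0.161). In these 3 genes no Emp1-deficient library reached down to a control.

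Pck2, the mitochondrial phosphoenolpyruvate carboxykinase, went the other way. It measured 55.98, 55.96 and 47.05 FPKM in control libraries, against 30.98, 41.58 and 33.64 FPKM in Emp1-deficient ones, without overlap (log2 difference -0.58, SE 0.13, adjusted p = 0.0976). Among other C/EBP and ATF factors, 2 of 11 tested had a positive difference, against 43.1% of all tested genes, but 7 with median scaling and 4 with scaling on protein-coding genes. In this list 0 passed by limma; an unadjusted p under 0.05 was reached by 0 with a higher and 2 with a lower level (6.50% and 9.72% of all tested genes). Atf6b, a relative of the ER stress sensor Atf6, measured 29.02, 28.30 and 29.12 FPKM in control libraries, against 19.56, 18.90 and 21.74 FPKM in Emp1-deficient ones. The groups lay well apart (log2 difference -0.50, SE 0.11, adjusted p = 0.0871), and Atf6b passed when protein-coding genes alone were tested (adjusted p = 0.0492). Creb3, a Golgi and ER membrane-bound factor, averaged 17.6 ± 2.02 and 13.7 ± 1.76 FPKM with overlap.

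**Figure D5:**
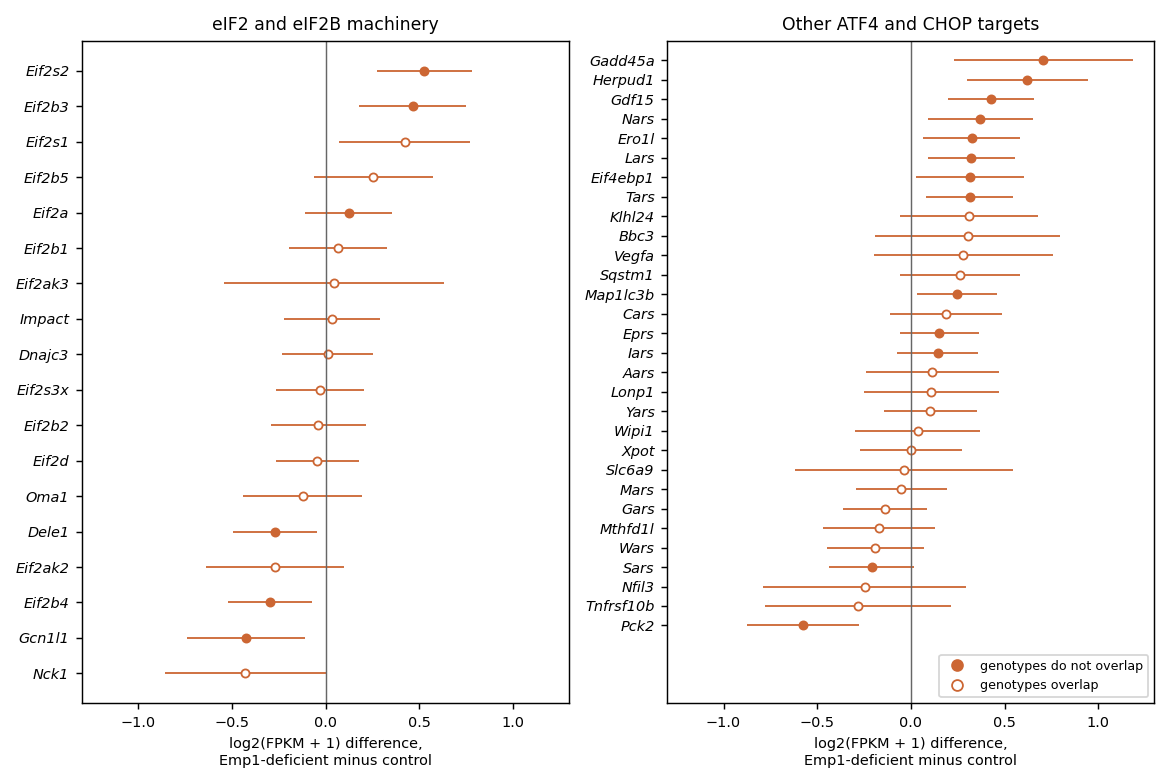
Difference in log2(FPKM + 1) between Emp1-deficient and control HSCs (dot, fitted difference; bar, 95% interval; n = 3 per genotype) for 18 genes of the eIF2 and eIF2B machinery and 30 further targets of ATF4 and CHOP. Filled dots mark genes without overlap, led by Eif2s2 on the left and by Gadd45a and Herpud1 on the right, with Pck2 lowest.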

How the data were processed

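Messenger RNA was sequenced from sorted bone marrow HSCs of 3 control and 3 Emp1-deficient samples. Per the labels' protocols, RNA was extracted with a miRNeasy kit, amplified by Geo-seq, a low-input method, and made into libraries with TruePrep V2. The authors deposited FPKM values (fragments scaled by transcript length and library total) to 2 decimals for 55401 Ensembl identifiers. The submitters' processing notes name the build mm10 and the tools DESeq2, HTSeq, Cufflinks (2.1.1) and Bowtie (0.12.9). The tool that gave the FPKM values and any use of strand are not stated there.

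Symbols came from GENCODE M21 (GRCm38), which matched 55141 identifiers. Of identifiers that share a symbol, the one with the highest mean kept it. Depth in reads is unknown. From the FPKM ratio of low single-exon genes, relative depth ran from 0.773 to 1.86 (control replicate 1 set to 1), so values near 0 are least certain in the shallower libraries. FPKM values are relative to a library's own total, and amplification adds scatter.

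Genes that reached 1 FPKM in 3 or more libraries were tested, with Emp1 kept in any case. The fit used limma (version 3.58.1, R 4.3.3) on log2(FPKM + 1) (genotype as the only term, trend and robust variance, two-sided). The threshold was a Benjamini-Hochberg adjusted p under 0.05 over all 15723 tested genes. A log2 difference on this scale understates the change of low genes. The fit was tested on simulated data. Samples were grouped by genotype label. Nothing in the labels ties replicates to separate mice. The p-values therefore reflect the spread among these libraries alone, and it may be technical.

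Alternatives covered the pseudocount, the filter, the scaling, the gene universe, the variance model, the replicate number as a term, and each library left out. An added scaling on protein-coding genes and a length-weighted join of the Ddit3 identifiers were chosen after seeing the data. The genes and lists were chosen with earlier results of these data known. Values in every library are given for members with an unadjusted p under 0.05 or without overlap between genotypes, and for Atf4, Ddit3, Trib3, Chac1, Asns, Atf3, Ppp1r15a and Eif2ak4. Of each other pathway list up to 4 genes with the smallest p are named, and of each marker list up to 3 of the highest. Genes outside that rule are said to be so.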

Additional observations from a re-analysis of the deposited data

How the results depend on the processing

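Of 31 tested members, 20 kept their direction in every alternative that gave them a value (15 to 21 each) and 11 turned at least once. Vldlr passed the threshold in 1 alternative, and no other member in any.

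Counts over all genes (25 higher and 17 lower) moved to 14 and 14 after rescaling to TPM, 14 and 15 with a pseudocount of 0.1, 6 and 9 with a pseudocount of 5, 2 and 3 without a filter, 46 and 58 at a mean of at least 5 FPKM, 67 and 141 among protein-coding genes, 5 and 3 without trend and robust variance, 37 and 45 with array weights, 15 and 4 with median scaling, 15 and 9 with quantile normalization, 16 and 6 with scaling on protein-coding genes, and 19 and 43 with the dominant genes left out (mitochondrial, ribosomal protein, immunoglobulin and rRNA genes). Leaving out each library gave 1 to 12 higher and 0 to 16 lower. The cause was not tested.

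Members at an unadjusted p under 0.05 (3 higher and 1 lower) were 6 and 0 with median scaling, 5 and 3 with quantile normalization, 5 and 0 with scaling on protein-coding genes, and 5 and 2 without trend and robust variance. The lower count was 2 with TPM, array weights or dominant genes left out. Leaving out a library gave 3 to 5 higher and 0 to 3 lower, and 0 to 1 past the threshold (higher) and 0 (lower). Positive members numbered 17 with median scaling and 10 to 14 with a library left out. Positive genes numbered 7 to 12 in the eIF2 and eIF2B list, 19 to 23 among further targets and 1 to 7 among other factors. These lists had 18, 30 and 11 tested genes in the main fit, and the number tested varied with the setting. The median of members (-0.074) was 0.008 with median scaling, -0.133 with dominant genes left out and -0.089 to -0.048 with a library left out.

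Directions that turned were those of Aldh18a1 (-0.0095 with TPM, -0.0225 with dominant genes left out), Ddit4 (0.0283 with array weights) and Trib3 (0.0007 with quantile normalization). Median scaling adds the same 0.082 to every gene, so small negative differences turn by construction (the median of all genes became 0.036), which is the only turn of Slc1a5. With it, the turned directions were those of Trib3 (0.008), Ppp1r15b (0.0241), Psat1 (0.0372), Mthfd2 (0.0011), Slc1a5 (0.0203) and Slc38a2 (0.0504), and with scaling on protein-coding genes that of Slc38a2 (0.0105). With a library left out, values ran from -0.0501 to 0.1512 for Aldh18a1, -0.036 to 0.3098 for Atf3, -0.3647 to 0.2497 for Ddit4, -0.1838 to 0.0212 for Mthfd2, -0.1321 to 0.0453 for Ppp1r15b, -0.1758 to 0.0698 for Psat1, -0.0806 to 0.1856 for Psph, -0.1383 to 0.0876 for Slc38a2, -0.2687 to 0.0401 for Slc7a11 and -0.1957 to 0.0817 for Trib3.

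Same-numbered libraries did not deviate together (correlations over genes of -0.108, 0.086 and -0.052), so the numbers are not taken to pair the samples. With the replicate block 6 genes were higher and 2 lower over all genes, and members at an unadjusted p under 0.05 were 4 higher and 0 lower. With depth in reads unknown, the low members (Chac1, Gpt2, Slc7a11, Cth and those under the filter) are the least certain.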
